A study of Mus musculus with 8 samples.

Results

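RGS genes encode the regulators of G protein signalling, and the 10 described here are Rgs1, Rgs2, Rgs3, Rgs10, Rgs11, Rgs12, Rgs14, Rgs16, Rgs18 and Rgs19, of 47937 genes in the deposited count table. They were chosen by name with results of these same libraries, including the difference between knockout and control, already known, so the fold changes and p-values given for them are a description and not independent evidence. The table holds 21 numbered Rgs genes in all. Total RNA was sequenced from sorted CD8 single-positive (CD8SP) TCRb+MHC1high cells, the mature CD8 stage in the thymus, of 4 Ndrg3ctrl and 4 Ndrg3TKO mice, with 1 library per mouse. Ndrg3ctrl mice carried 1 floxed Ndrg3 allele and Lck-cre (Ndrg3 +/fl;Lck-cre+), and Ndrg3TKO mice carried both alleles floxed and Lck-cre (Ndrg3 fl/fl;Lck-cre+). All 8 mice thus had Cre, and all 8 had at least 1 floxed allele, on a C57BL/6J background and at 6 to 7 weeks of age. The Lck promoter switches Cre on early in T cell development, so the gene was targeted before the CD8SP stage. The labels name no litters or sorting days.

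A chemokine receptor signals by making the alpha subunit of a heterotrimeric G protein exchange GDP for GTP. RGS proteins speed up the hydrolysis of that GTP and so end the signal. Chemokine and sphingosine 1-phosphate (S1P) receptors couple mainly to the Gi class, and the amount of RGS protein bears on how strongly and how long a lymphocyte responds to a chemokine. Members are grouped by sequence. The R4 group consists mostly of small proteins with little beside the RGS domain, though not every form of Rgs3 is small. The R12 group includes the larger scaffold-like Rgs12 and Rgs14, the R7 group works with the G protein subunit Gb5, and the RZ group includes Rgs19, also called GAIP. RNA alone was measured here, and migration or calcium responses to chemokines were not analysed here.

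The promoter windows of Rgs10 and Rgs12 are shown because these genes of the same R12 group had fold changes of opposite sign. Both are RefSeq windows of GRCm38.p6, from 250 bases before to 50 after a transcription start, read 5′ to 3′ on the gene's strand, with CG dinucleotides in capitals. The Rgs10 window is chr7:128418123-128418422 on the minus strand, and the Rgs12 window, 1 of 2 listed for that gene, is chr5:34949198-34949497 on the plus strand.
Rgs10: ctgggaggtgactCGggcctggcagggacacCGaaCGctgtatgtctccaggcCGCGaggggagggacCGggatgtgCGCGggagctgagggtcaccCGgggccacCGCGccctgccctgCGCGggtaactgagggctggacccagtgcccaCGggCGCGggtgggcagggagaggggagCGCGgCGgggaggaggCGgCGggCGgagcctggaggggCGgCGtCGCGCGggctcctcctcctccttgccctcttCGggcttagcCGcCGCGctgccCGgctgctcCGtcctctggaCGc
Rgs12: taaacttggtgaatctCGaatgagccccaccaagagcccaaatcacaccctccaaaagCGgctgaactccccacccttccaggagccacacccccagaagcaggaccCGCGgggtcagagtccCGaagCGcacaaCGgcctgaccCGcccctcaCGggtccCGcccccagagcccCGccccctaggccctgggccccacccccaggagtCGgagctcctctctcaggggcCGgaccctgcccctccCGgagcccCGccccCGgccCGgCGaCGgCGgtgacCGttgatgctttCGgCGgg
The Rgs10 window holds 34 CG dinucleotides and the Rgs12 window 23, against a median of 7 over the 32851 windows of the table, and 7.73% of all windows hold as many as Rgs10. The other Rgs12 window (chr5:34998828-34999127) holds 3, below the median, and 76.7% of all windows hold as many. Windows were listed for 6 of the 10 genes, and each of the 6 had at least 1 window above that median, with 33 for Rgs2, 22 for Rgs16, up to 37 for Rgs19 and up to 9 for Rgs3. Rgs1, Rgs11, Rgs14 and Rgs18 had none in the table. The dinucleotide count describes the letters alone.

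Total counts ranged from 21126698 to 32668081 per library. The targeted gene was checked first. Ndrg3 (chr2:156927345-156992056) had normalized counts (counts set to a common library size, the mean total, with TMM scaling) of 2294, 2359, 2349 and 2342 in Ndrg3ctrl and 1460.0, 1402, 1537 and 1601 in Ndrg3TKO. All 4 Ndrg3TKO libraries were lower, with a log2 fold change of -0.64 (SE 0.0526, adjusted p = 1.04e-05, edgeR). Counts over all exons include RNA of a deleted allele, and Ndrg3ctrl mice have 1 deleted allele as well. Y-linked genes gave 340.5 CPM in Ndrg3ctrl 2, 379.4 in Ndrg3TKO 2 and 416.3 in Ndrg3TKO 3, and under 1 CPM in the other 5 libraries. Across all genes, 168 of 14633 tested passed an adjusted p of 0.05 (116 higher and 52 lower in Ndrg3TKO).

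The 10 genes spanned a wide range of levels in control cells. Levels of different genes were compared as CPM per kb, that is TMM-scaled CPM divided by the length in kb of all merged exons. In Ndrg3ctrl, Rgs19 had 44.4 ± 1.58 CPM per kb and Rgs10 had 43.3 ± 1.56 (SD, n = 4), and their libraries overlapped. Rgs14, at 26.6 ± 1.01, and Rgs3, at 18.8 ± 1.68, came next and were each apart from their neighbours. Rgs11 had 5.31 ± 1.05 CPM per kb. Rgs2, at 3.21 ± 0.284, and Rgs16, at 2.45 ± 0.604, overlapped each other. Rgs12 had 1.33 ± 0.133, Rgs1 0.531 ± 0.0816 and Rgs18 0.0822 ± 0.0401 CPM per kb. The merged exons of Rgs1 fill its whole locus of 6947 bases, so its level depends on which length is used. Per kb of the longest protein-coding transcript, an alternative chosen after seeing the data, Rgs1 had 0.961 CPM per kb and stayed at place 9, while Rgs10 (84.2) and Rgs19 (65.5) changed places and no other gene moved. The overlaps changed with that length. Control libraries of Rgs14 (45.5 to 49.9) and Rgs3 (39.8 to 48.0) then overlapped, as did those of Rgs16 and Rgs12. Those of Rgs10 and Rgs19, and of Rgs2 and Rgs16, no longer did.

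**Figure D1:**
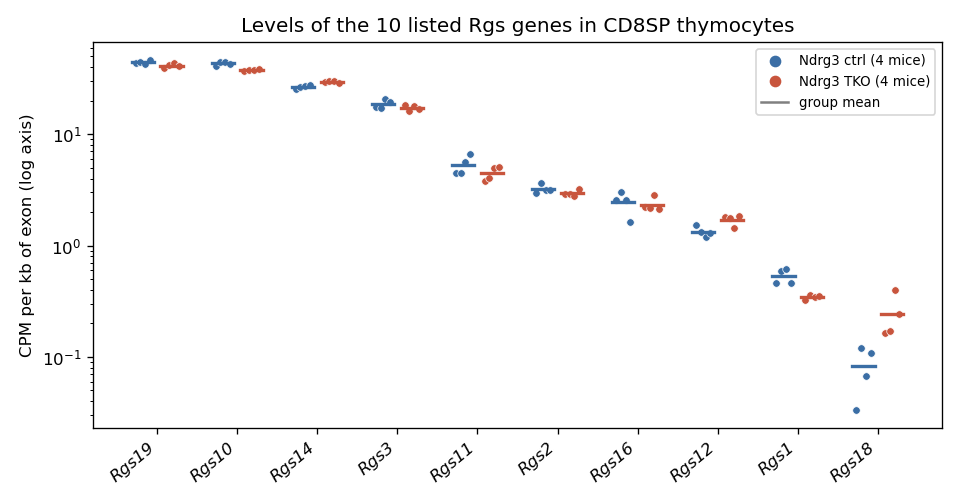
Level of each of the 10 Rgs genes in CPM per kb of exon (log axis), with 1 point per mouse and a line at the group mean, Ndrg3ctrl in blue and Ndrg3TKO in red, in the order of the Ndrg3ctrl means. The order runs from Rgs19 and Rgs10, near 44 and 43 in Ndrg3ctrl, to Rgs18, under 0.5 in every mouse.

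The same order held for the group means in Ndrg3TKO. There Rgs19 (41.4 ± 1.93 CPM per kb) and Rgs10 (37.7 ± 0.664) no longer overlapped, whereas Rgs1 (0.344 ± 0.0147) and Rgs18 (0.242 ± 0.108) did. Added up, the 10 genes gave 146.0 ± 4.31 CPM per kb in Ndrg3ctrl and 138.0 ± 3.19 in Ndrg3TKO, and the groups overlapped. The 3 R12 genes made up 48.8% ± 0.711 of that sum in Ndrg3ctrl and 50.01% ± 0.877 in Ndrg3TKO, the RZ gene Rgs19 made up 30.4% and 30.0%, the 5 R4 genes 17.2% and 16.7%, and the R7 gene Rgs11 3.62% and 3.24%. For each group of genes the Ndrg3TKO shares overlapped those of the controls. The sum and the shares depend on the length used for each gene. The remaining 11 numbered Rgs genes added almost nothing. Rgs6, Rgs7, Rgs13, Rgs20, Rgs21 and Rgs22 had 0 counts in every library, Rgs4, Rgs5, Rgs8 and Rgs17 had at most 3, and only Rgs9, an R7 gene known from retina and striatum, passed the filter on low counts, with 7 to 21 counts per library and a log2 fold change of 0.16 (SE 0.299, adjusted p = 0.89, edgeR). A count of 0 allows up to 3 counts, which is 0.0918 to 0.142 CPM in these libraries and covers counting error only.

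Between the groups, none of the 9 listed genes that passed the filter on low counts changed past an adjusted p of 0.05 in edgeR's quasi-likelihood test, with 1.15% of all 14633 tested genes past it. At an unadjusted p of 0.05, 4 of the 9 passed, with 10.9% of all tested genes, namely Rgs1 and Rgs10 with lower values and Rgs12 and Rgs14 with higher values in Ndrg3TKO. For 3 of the 9, Rgs1, Rgs10 and Rgs14, the 4 Ndrg3TKO libraries all lay outside the range of the 4 Ndrg3ctrl libraries, with 7.04% of all tested genes. DESeq2, run as an alternative, called 2 of the 10 genes, Rgs1 (adjusted p = 0.0306) and Rgs10 (adjusted p = 0.0137), with 2.03% of the 15108 genes to which it gave an adjusted p. The median log2 fold change of the 9 genes was -0.11 and that of all tested genes -0.00330, and 7 of the 9 were negative against 7493 of 14633. Since these genes were chosen with this contrast known, nothing is read from these counts. In bulk RNA, fewer cells of a type and less RNA per cell cannot be told apart.

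**Figure D2:**
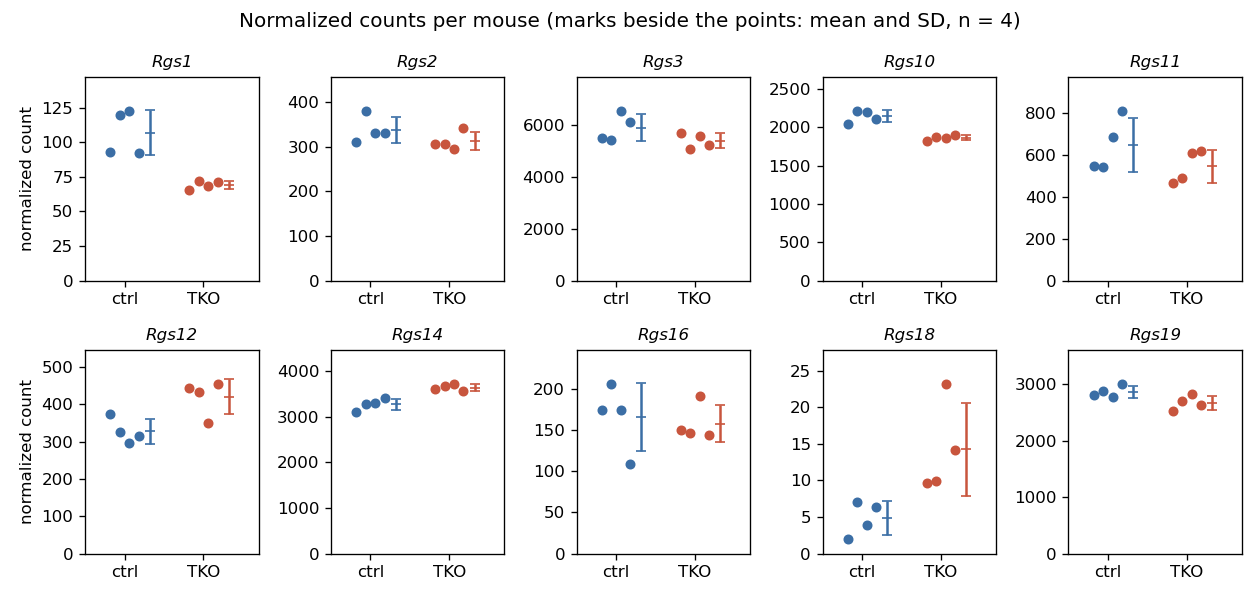
Normalized counts of the 10 Rgs genes in each Ndrg3ctrl (blue) and Ndrg3TKO (red) library, 1 point per mouse, with the mean and SD (n = 4) beside the points and each axis starting at 0. The groups do not overlap for Rgs1, Rgs10, Rgs14 and Rgs18.

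Among the R4 genes, Rgs1 (ENSMUSG00000026358) restrains the migration of B and T cells towards chemokines. Its normalized counts were 93.2, 119, 122 and 92.1 in Ndrg3ctrl and 65.2, 71.8, 68.6 and 71.1 in Ndrg3TKO. Every Ndrg3TKO library was below every Ndrg3ctrl library, and the spread was wider among the controls (107 ± 16.4 against 69.2 ± 2.96, SD, n = 4). The log2 fold change was -0.62 (SE 0.154, 95% interval -0.95 to -0.29), which had the largest size among the 9 tested genes, with an adjusted p of 0.0807 in edgeR. These are low counts, with 68 to 125 reads per library. Leaving out 1 library at a time gave adjusted p-values of 0.0922 to 0.206 with edgeR.

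Rgs2, an R4 protein that acts preferentially on Gq, had normalized counts of 309.6, 379.7, 330.2 and 330.2 in Ndrg3ctrl and 305, 306, 295 and 341 in Ndrg3TKO. The groups overlapped, and the log2 fold change was -0.11 (SE 0.0953, adjusted p = 0.729, edgeR). In the 5 libraries without Y-linked counts, a choice made after seeing the data, it was 0.000990. No difference beyond the spread between mice was seen for this gene.

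Rgs3 acts on Gi and Gq and was the listed gene with the most counts. Its normalized counts were 5494, 5408, 6521 and 6096 in Ndrg3ctrl and 5681, 5044, 5552 and 5231 in Ndrg3TKO. The highest Ndrg3TKO library lay above the lowest controls. The log2 fold change was -0.13 (SE 0.0649, 95% interval -0.27 to 0.01, adjusted p = 0.499, edgeR).

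Rgs16 is induced by T cell activation and limits responses to chemokines such as the Cxcr4 ligand. It had normalized counts of 175, 206, 174 and 109 in Ndrg3ctrl and 151, 146, 191 and 144 in Ndrg3TKO. Ndrg3ctrl 4 was the lowest library and Ndrg3ctrl 2 the highest, so the controls spanned the whole Ndrg3TKO range. The log2 fold change was -0.07 (SE 0.174, 95% interval -0.44 to 0.31, adjusted p = 0.924, edgeR), and it was 0.04 without Ndrg3ctrl 2. An antisense gene, Gm28513, shares 236 exonic bases with Rgs16 and had 157 counts in all 8 libraries together. Whether the counting used strand is not given in the sources used here, so reads in that stretch are uncertain.

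Rgs18, known from platelets and megakaryocytes, was close to absent, with 2, 5, 4 and 6 raw counts in Ndrg3ctrl and 10, 11, 24 and 16 in Ndrg3TKO. It did not pass the filter on low counts and was not part of the main test. Per library this was 1.94, 7.11, 3.92 and 6.35 normalized counts in Ndrg3ctrl and 9.59, 9.996, 23.2 and 14.2 in Ndrg3TKO. Every Ndrg3TKO library was higher, and the ratio of the means was 2.95. Without the filter, edgeR gave a log2 fold change of 1.59 with an adjusted p of 0.103, and DESeq2 gave 1.601 with an adjusted p of 0.171. Among markers of platelets and megakaryocytes, Pf4 and Ppbp were at 0 in every library and Itga2b, the alpha subunit of the fibrinogen receptor, had normalized counts of 59.7 to 84.7 in Ndrg3ctrl and 69.97 to 96.9 in Ndrg3TKO.

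Several R4 genes are neighbours. Rgs2 (chr1:143999338-144004161), Rgs1 (chr1:144242296-144249242) and Rgs18 (chr1:144752683-144775435) lie on the minus strand in a stretch of chromosome 1 whose 5 protein-coding genes are all numbered Rgs genes, the others being Rgs13 and Rgs21. Within it, Rgs13 and Rgs21 had 0 counts, the Rgs1 values were lower in Ndrg3TKO, the Rgs18 values were higher, and the Rgs2 groups overlapped. Neither Rgs1 nor Rgs2 passed the main test, and Rgs18 was not part of it. Rgs16 (chr1:153740349-153745468) lies apart from them on the plus strand.

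Among the R12 genes, Rgs10 (ENSMUSG00000030844, chr7:128373621-128418758), a small protein that acts on Gi, had normalized counts of 2049.6, 2213, 2200.5 and 2113 in Ndrg3ctrl and 1819.7, 1875, 1867 and 1898 in Ndrg3TKO. All Ndrg3TKO libraries were below all controls, and the spread was narrow in both groups (2144 ± 77.0 against 1865 ± 32.9, SD, n = 4). This was a log2 fold change of -0.20 (SE 0.0479, 95% interval -0.30 to -0.10), a difference of -13.0%, with an adjusted p of 0.0668 in edgeR, the lowest of the 9 genes. Without 1 library at a time the adjusted p was 0.0873 to 0.179 with edgeR.

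Rgs14 (ENSMUSG00000052087, chr13:55369732-55384687) carries an RGS domain, Ras-binding domains and a GoLoco motif that holds inactive Gi. Its normalized counts were 3102, 3272, 3293 and 3403 in Ndrg3ctrl and 3600.0, 3670.2, 3713 and 3556 in Ndrg3TKO. Here all Ndrg3TKO libraries were above all controls. Their log2 fold change was 0.15 (SE 0.0470, 95% interval 0.05 to 0.25), or 11.2%, with an adjusted p of 0.183 in edgeR.

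Rgs12 (chr5:34949445-35039644) has the same domains as Rgs14 and additional protein-binding domains in its long form. It had normalized counts of 373, 326, 296 and 315 in Ndrg3ctrl and 444, 433, 349.9 and 454 in Ndrg3TKO. Ndrg3ctrl 1 lay above Ndrg3TKO 3, and the remaining libraries were apart by group. A log2 fold change of 0.36 was fitted (SE 0.105, 95% interval 0.13 to 0.59, adjusted p = 0.156, edgeR). An antisense gene that shares 467 exonic bases with Rgs12 had 0 counts.

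Within each library, the ratio of Rgs10 to Rgs14 does not depend on the scaling. This ratio, picked after the values were seen, was 0.661, 0.676, 0.668 and 0.621 in Ndrg3ctrl and 0.505, 0.511, 0.503 and 0.534 in Ndrg3TKO. All 4 Ndrg3TKO values were below all 4 controls (means 0.656 ± 0.0246 and 0.513 ± 0.0141, SD, n = 4). It is given with no test because both genes were chosen with the contrast known.

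The R7 gene Rgs11, known from bipolar cells of the retina, had normalized counts of 546, 542, 687 and 809 in Ndrg3ctrl and 464, 492, 611 and 617 in Ndrg3TKO. The groups overlapped, and the log2 fold change was -0.24 (SE 0.137, 95% interval -0.54 to 0.05, adjusted p = 0.564, edgeR). Arhgdig, on the opposite strand, shares 138 exonic bases with Rgs11 and had 403 counts over the 8 libraries. R7 proteins are stable only when bound to Gb5, and Gnb5, which encodes it, had 20 to 49 counts per library. Its normalized counts were 25.2, 37.0, 40.2 and 21.2 in Ndrg3ctrl and 39.3, 44.5, 42.5 and 35.5 in Ndrg3TKO, with a log2 fold change of 0.40 (SE 0.238, adjusted p = 0.584, edgeR). Gnb5 groups overlapped as well.

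The RZ gene Rgs19 (chr2:181688419-181693977), whose protein GAIP acts on Gi3, had normalized counts of 2814, 2879.7, 2765 and 3001 in Ndrg3ctrl and 2532, 2699, 2829 and 2634 in Ndrg3TKO. Ndrg3TKO 3 lay among the controls. The log2 fold change was -0.10 (SE 0.0506, 95% interval -0.21 to 0.01, adjusted p = 0.507, edgeR).

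**Figure D3:**
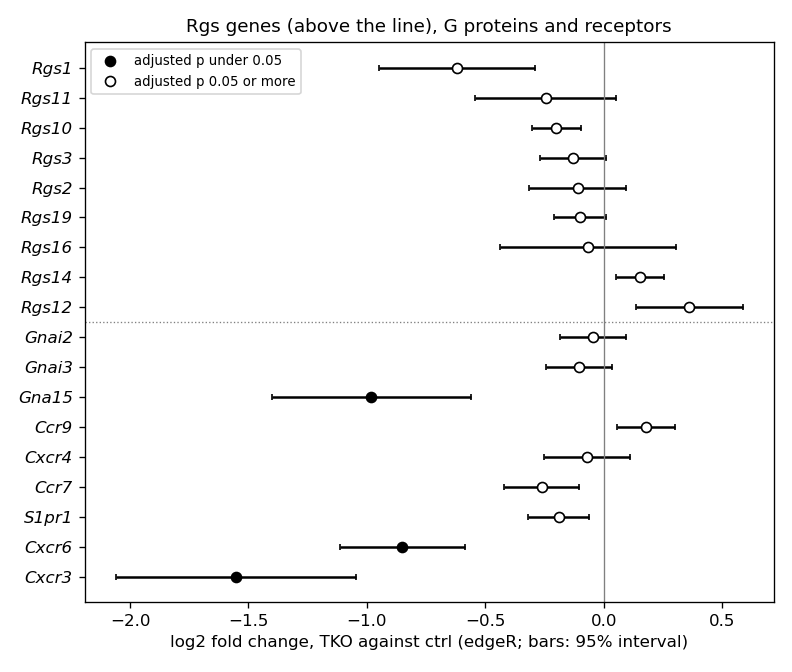
Log2 fold change of Ndrg3TKO against Ndrg3ctrl with its 95% interval (edgeR) for the 9 tested Rgs genes, above the dotted line, and for G protein subunits and receptors, below it. Filled points passed an adjusted p of 0.05, which Gna15, Cxcr6 and Cxcr3 did and no Rgs gene did, and the intervals of Rgs1, Rgs10, Rgs12 and Rgs14 leave out 0.

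The adjusted p of the 4 genes with an unadjusted p under 0.05 moved across the threshold with the fit. Rgs1 and Rgs10 passed with DESeq2 and with the presence of Y-linked counts as a covariate in edgeR (adjusted p = 0.0354 and 0.0286), and did not pass in edgeR's fit as reported. In the 5 libraries without Y-linked counts (3 Ndrg3ctrl and 2 Ndrg3TKO), their adjusted p was 0.347 and 0.370 with edgeR, and the log2 fold changes were -0.59 and -0.19. Without any 1 library, none of the 9 genes passed. The direction of these 4 genes was kept in every setting run.

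**Figure D4:**
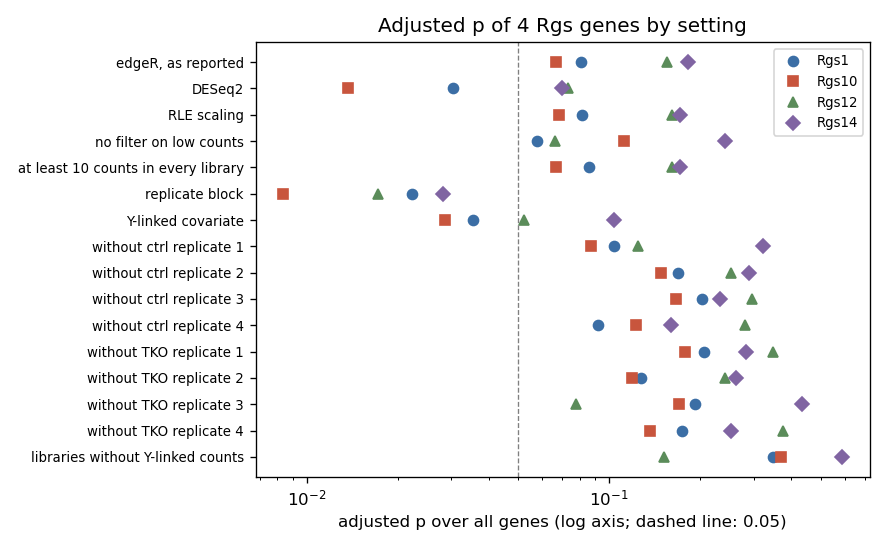
Adjusted p over all genes (log axis) of Rgs1, Rgs10, Rgs12 and Rgs14 in each setting, with a dashed line at 0.05. All 4 lie right of the line in the edgeR fit as reported and in the 8 fits that leave out 1 library, and between 2 and 4 of them lie left of it with DESeq2, with the replicate block and with the presence of Y-linked counts as a covariate.

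The G protein subunits on which RGS proteins act were then examined. Of 15 alpha subunit genes 9 were tested, and 1, Gna15, was lower in Ndrg3TKO, with 1.15% of all tested genes past the threshold. Gna15 encodes a Gq-class subunit of blood cells and had normalized counts of 50.5, 54.0, 55.8 and 58.2 in Ndrg3ctrl and 28.8, 30.9, 21.3 and 29.3 in Ndrg3TKO. The groups did not overlap, and the log2 fold change was -0.98 (SE 0.196, adjusted p = 0.0262, edgeR). This call was lost without Ndrg3ctrl 1, 3 or 4 or without Ndrg3TKO 1, 3 or 4 (adjusted p = 0.0604 to 0.0953, edgeR), and in the libraries without Y-linked counts (adjusted p = 0.181). In level the list was led by Gnai2, Gnai3 and Gnas. The Gi subunit gene Gnai2 had 149 ± 12.5 CPM per kb in Ndrg3ctrl and 144 ± 6.37 in Ndrg3TKO, Gnai3 had 48.5 ± 4.45 and 45.0 ± 2.33, and Gnas, the Gs subunit, had 42.1 ± 4.07 and 44.7 ± 2.72 (SD, n = 4). The log2 fold change was -0.04 for Gnai2 (SE 0.0647, 95% interval -0.18 to 0.09, adjusted p = 0.856, edgeR) and -0.11 for Gnai3 (SE 0.0653, adjusted p = 0.599). Over the alpha subunits the median log2 fold change was -0.02. Per kb of merged exons, Gnai2 alone was thus at about the level of the 10 Rgs genes added up (146.0 CPM per kb). That comparison depends on the length used, since Rgs10 had 84.2 CPM per kb of its longest protein-coding transcript. Of 17 beta and gamma subunit genes 9 were tested and 0 passed (1 at an unadjusted p under 0.05 by edgeR, with 10.9% of all tested genes). They were led in level by Gnb2 (66.2 CPM per kb in Ndrg3ctrl), Gnb1 (53.7) and Gng2 (19.7). Gng5 was lower in all 4 Ndrg3TKO libraries (adjusted p = 0.0727, edgeR). It passed with DESeq2, with the replicate block and with Y-linked presence as a covariate. All 15 genes of other proteins with an RGS homology domain were tested and 0 passed (2 at an unadjusted p under 0.05 by edgeR, with 10.9% of all tested genes). The most abundant of these were Arhgef1 (240.3 CPM per kb in Ndrg3ctrl) and the receptor kinases Grk6 (136) and Grk2 (122), which switch off receptors by phosphorylation.

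Of 22 chemokine receptor genes 12 were tested, and 2 were lower in Ndrg3TKO, with 1.15% of all tested genes past the threshold in either direction. At an unadjusted p under 0.05 by edgeR, 6 were lower and 1 higher, with 10.9% of all tested genes. Cxcr3, a receptor of effector and memory T cells, had normalized counts of 64.0, 51.2, 40.2 and 44.5 in Ndrg3ctrl and 16.3, 17.3, 14.5 and 19.5 in Ndrg3TKO, with a log2 fold change of -1.55 (SE 0.236, adjusted p = 0.00356, edgeR). Cxcr6 had 1484, 1453, 1409 and 1126 against 589.9, 841, 869 and 734, with a log2 fold change of -0.85 (SE 0.120, adjusted p = 0.00413, edgeR). For both genes the groups did not overlap. Cxcr6 stayed past the threshold without any 1 library and in the libraries without Y-linked counts, and Cxcr3 had an adjusted p of 0.0574 in the latter. The 12 tested receptors had a median log2 fold change of -0.28, and 9 of them were negative, against a median of -0.00330 and 7493 negative of all 14633 tested genes.

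The receptors with the highest levels did not pass in edgeR's fit as reported, but Ccr7, Ccr9, S1pr1 and S1pr4 passed in some alternatives. Ccr7, which guides mature thymocytes into the medulla and T cells into lymph nodes, had 13298, 14107, 11695 and 11318 normalized counts in Ndrg3ctrl and 10635, 11377, 10326 and 9689 in Ndrg3TKO. Only Ndrg3TKO 2 lay within the range of the controls, and the log2 fold change was -0.26 (SE 0.0736, adjusted p = 0.135, edgeR). Ccr9, the receptor for the thymic and gut chemokine Ccl25, had 14596, 14612, 14707 and 13335 in Ndrg3ctrl and 15995, 15312, 17347 and 16050.4 in Ndrg3TKO. Its values were higher in all 4 Ndrg3TKO libraries, with a log2 fold change of 0.18 (SE 0.0570, adjusted p = 0.216, edgeR). For Cxcr4 the log2 fold change was -0.07 (SE 0.0841, 95% interval -0.25 to 0.11, adjusted p = 0.813, edgeR). Of 5 S1P receptor genes 3 were tested and 0 passed (2 at an unadjusted p under 0.05 by edgeR, with 10.9% of all tested genes). S1pr1, needed to leave the thymus, had a log2 fold change of -0.19 (SE 0.0599, adjusted p = 0.203, edgeR) at 130.0 CPM per kb in Ndrg3ctrl. S1pr4 had -0.22 (SE 0.0586, adjusted p = 0.116, edgeR) at 72.4, while S1pr2 was at 0.875 CPM per kb. With Y-linked presence as a covariate, Ccr7, S1pr1 and S1pr4 passed (adjusted p = 0.0186, 0.0307 and 0.0382, edgeR). Without the filter on low counts, Ccr7 and S1pr4 passed (adjusted p = 0.0223 and 0.0290, edgeR). S1pr4 also passed with DESeq2 (adjusted p = 0.0465) and without Ndrg3TKO 2 (adjusted p = 0.0382, edgeR). With the replicate block, Ccr7, Ccr9, S1pr1 and S1pr4 passed, and Cxcr4 passed in no setting.

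Summed over its list, the chemokine receptors gave 351.8 ± 32.3 CPM per kb in Ndrg3ctrl and 306.0 ± 14.7 in Ndrg3TKO, and the alpha subunits gave 302.5 ± 20.7 and 295.3 ± 13.2 (SD, n = 4). Both sums overlapped between the groups. Of 27 genes that act behind chemokine receptors or in migration 26 were tested, and 0 passed (4 at an unadjusted p under 0.05 by edgeR, with 10.9% of all tested genes). These genes were led in level by Coro1a (544 CPM per kb in Ndrg3ctrl), Rac2 (338) and Itgal (153), the integrin LFA-1 alpha chain. Their median log2 fold change was -0.00328. Pik3r5 (adjusted p = 0.0779, edgeR), Rhoh and Adcy7 passed with higher values with DESeq2, with the replicate block and with Y-linked presence as a covariate. Pik3r5 and Rhoh also passed without the filter on low counts, and Pik3r5 without Ndrg3TKO 2. Arrb1 passed with lower values with the replicate block.

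**Figure D5:**
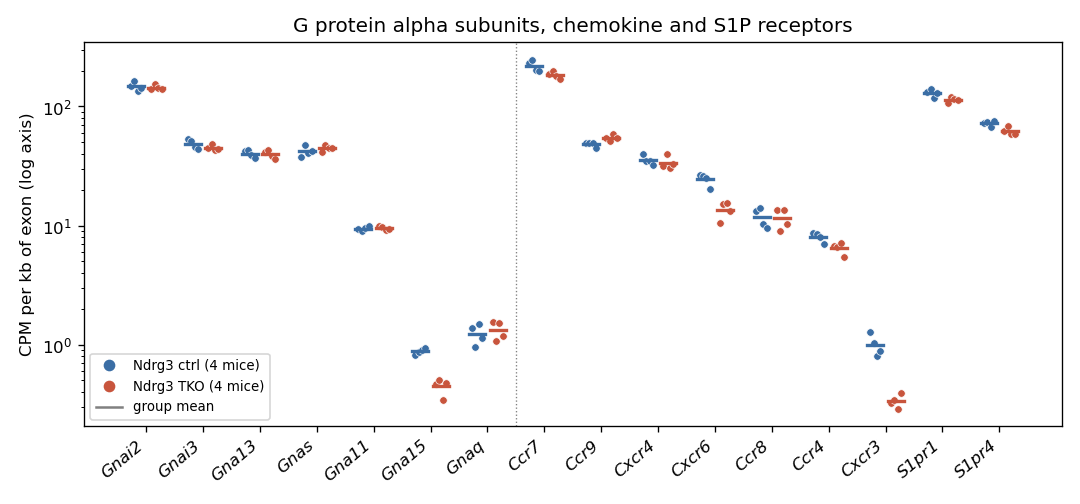
Level in CPM per kb of exon (log axis) of G protein alpha subunits (left of the dotted line) and of chemokine and S1P receptors (right), with 1 point per mouse and a line at the group mean, Ndrg3ctrl in blue and Ndrg3TKO in red. Gnai2 and Ccr7 are the highest of their lists, and Gna15, Cxcr6 and Cxcr3 are the genes whose difference passed the test.

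Immediate early genes and markers of cell types were read beside these values. Rgs1, Rgs2 and Rgs16 respond to T cell receptor stimulation in many settings. Of 21 immediate early and sorting stress genes 19 were tested and 1 passed, with 1.15% of all tested genes past the threshold. At an unadjusted p under 0.05 by edgeR, 1 was higher and 4 lower, with 10.9% of all tested genes. Egr1, a transcription factor induced by the T cell receptor, was the gene that passed, with a log2 fold change of -0.43 (SE 0.0889, adjusted p = 0.0422, edgeR). Without Ndrg3ctrl 1, 2 or 3 or Ndrg3TKO 2, 3 or 4 this call was lost (adjusted p = 0.0683 to 0.134, edgeR), as it was in the libraries without Y-linked counts (adjusted p = 0.192). The list's summed normalized counts were 46228 to 56834 in Ndrg3ctrl and 44149 to 51624 in Ndrg3TKO, and their part in the Rgs1 values was not tested. In level this list was led by Jund (263 CPM per kb in Ndrg3ctrl), Btg2 (78.0) and Ier2 (49.5).

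The cells carried the markers of their label. All 11 mature CD8 markers were tested and 0 passed (0 at an unadjusted p under 0.05 by edgeR), and the list's highest in counts were Cd8a, with 37862 to 40335 normalized counts over the 8 libraries, and B2m, with a mean of 38711 in Ndrg3ctrl. The list summed to 250449 to 291221 in Ndrg3ctrl and 259641 to 284308 in Ndrg3TKO. Cd4 had 5 to 44 raw counts. Of 13 thymocyte maturation markers 11 were tested and 0 passed (6 at an unadjusted p under 0.05 by edgeR, 2 higher and 4 lower, with 10.9% of all tested genes). Ccr9 was among the 2 highest in counts, and the list summed to 69993 to 80494 in Ndrg3ctrl and 66813 to 72220.0 in Ndrg3TKO. Of the 11, 7 had negative and 4 positive fold changes. Ccr7, S1pr1 and Klf2 went lower, Klf2 from 160 to 199 CPM per kb in Ndrg3ctrl to 139 to 167 in Ndrg3TKO. Ccr9 and Dntt were higher in all 4 Ndrg3TKO libraries, Dntt at 8.36 to 11.1 CPM per kb against 6.18 to 8.16 in Ndrg3ctrl. Whether maturation stage takes part in the Rgs or receptor values was not tested. Of 9 memory-like CD8 markers, all tested, 3 were lower, with 1.15% of all tested genes past the threshold in either direction. These were Eomes (log2 fold change -1.26, adjusted p = 0.00017, edgeR), the chemokine Ccl5 (-2.39, adjusted p = 0.000603, edgeR) and Cxcr3. At an unadjusted p under 0.05 by edgeR, 4 were lower and 1 higher, with 10.9% of all tested genes. Il2rb and Nkg7, the highest in counts, did not pass, and the list's sums overlapped (19525 to 23761 and 19720.2 to 23056). Nkg7 went the other way, with 241 to 284 CPM per kb in Ndrg3ctrl and 264 to 324 in Ndrg3TKO. Whether fewer memory-like cells take part in the Rgs1 or Rgs10 values was not tested.

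Markers of other cell types were mixed in level, with some at 0 and others, such as Ighm and Ikzf2, at high counts. Of 6 B cell markers Ms4a1 was at 0, and the 2 tested, Ighm and Cd79b, did not pass (1 at an unadjusted p under 0.05 by edgeR, lower, with 10.9% of all tested genes). The list summed to 7303 to 8724 in Ndrg3ctrl and 7567 to 9021 in Ndrg3TKO. Cd79b was lower in all 4 Ndrg3TKO libraries (5.65 to 6.43 CPM per kb, against 7.59 to 9.10 in Ndrg3ctrl), while the Ighm groups overlapped. The part of B cells in the Rgs1 values was not tested. Of 6 myeloid markers Fcer1g alone was tested and did not pass, Csf1r had at most 4 counts, Itgax was next in counts, and the list summed to 43.4 to 68.3 and 40.6 to 44.1. The 6 platelet and megakaryocyte markers, with Itga2b alone tested and Gp9 next, summed to 59.7 to 85.7 and 69.97 to 99.5, groups that overlapped, and their part in the Rgs18 values was not tested. Of 6 NK and innate-like T cell markers 2 were tested and 1 passed, with 1.15% of all tested genes past the threshold in either direction. This was Klrb1c, the NK1.1 antigen, which rose from 7.76, 18.5, 5.88 and 3.18 normalized counts in Ndrg3ctrl to 45.1, 42.7, 59.0 and 58.6 in Ndrg3TKO (log2 fold change 2.62, SE 0.358, adjusted p = 0.00149, edgeR). Zbtb16, which did not pass the filter on low counts, went the other way. It had 0.0277 to 0.0635 CPM per kb in Ndrg3ctrl and 0.00594 to 0.0174 in Ndrg3TKO. Trdc did not pass, Ncr1 was at 0, and the list summed to 315 to 421 and 351 to 462. All 4 regulatory T cell markers were tested and 0 passed (3 at an unadjusted p under 0.05 by edgeR, all higher, with 10.9% of all tested genes), led by Ikzf2 and Ctla4, with sums of 14462 to 17230.0 and 16366 to 20648. Of 6 erythroid and epithelial markers Epcam alone was tested and did not pass, Alas2 was next in counts, and the list summed to 48.7 to 91.0 and 35.5 to 70.6.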

How the data were processed

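CD8SP thymocytes were sorted from 4 Ndrg3ctrl and 4 Ndrg3TKO mice, and 1 stranded total RNA library was made per mouse after removal of ribosomal RNA. The authors used cutadapt for trimming, STAR for alignment to GRCm38.p4 with GENCODE M9 and featureCounts for counting per gene, and the counts they deposited are raw. Settings for strand and multiple matches are not given in the sources used here. Groups and replicate numbers came from the labels, and all 8 sample columns were used.

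Symbols came from a gene name table, and positions and exon lengths from GENCODE M21 (GRCm38), which matched 47310 of 47937 genes (98.7%). Genes with low counts were removed with filterByExpr, libraries were scaled by TMM, and the groups were compared with edgeR 4.0.16 (limma 3.58.1, R 4.3.3; glmQLFit, robust, and glmQLFTest) over 14633 genes, with Benjamini-Hochberg adjustment and a threshold of 0.05. SE was obtained from the fold change and the F statistic. DESeq2 1.42.0, RLE scaling, no filter, a minimum of 10 counts in every library, the replicate number as a block, Y-linked presence as a covariate and leaving out each library were alternatives. The script was tested on simulated counts. Replicates differed by chi-square (9.26 to 32.3 per gene), so no library repeats another of its group. P-values measure the spread between these mice. Depth was 21126698 to 32668081 counts per library, and precision is limited for genes with few counts. No exact permutation test was used, since every p comes from the fit over all genes.

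The 10 Rgs genes and all gene lists were chosen with earlier results of these data known. Genes named singly were the listed Rgs genes, Ndrg3, the other Rgs genes, and from each pathway list the members past the threshold and the 3 with the highest level per kb, and from each marker list those past the threshold or among the 2 with most counts. Of the markers this rule covers, 1 is not reported here. Gnb5, Cxcr4's interval, Zbtb16 and markers at 0 were named beside them, Gnb5 as the partner of R7 proteins. Gng5, Pik3r5, Rhoh, Adcy7, Arrb1, Klf2 and Dntt were also named, a choice made after seeing the values. Of the genes named for level alone, fold changes of Gnai2, Gnai3, Ccr7, Ccr9, Cxcr4, S1pr1 and S1pr4 were followed through the alternatives, a limit set after seeing the values.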

Additional observations from a re-analysis of the deposited data

Results flagged for a closer look

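In 2 of 56 groups of 4 libraries, 1 library stood apart from the others by Dixon's test, and chance gives 1 in 20, or 2.8. Rgs16 was at 191 normalized counts in Ndrg3TKO 3, against 144 to 151 in the other Ndrg3TKO libraries. Ccr9 was at 13335 normalized counts in Ndrg3ctrl 4, against 14596 to 14707 in the other Ndrg3ctrl libraries.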

How the results depend on the processing

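The number of genes past the threshold, 168 as reported, was 306 with DESeq2, 274 without a filter on low counts, 437 with Y-linked presence as a covariate and 92 in the 5 libraries without Y-linked counts, and 90 to 158 leaving out 1 library at a time. For the listed Rgs genes the count of 0 became 2 with DESeq2 and 2 with that covariate (2.99% of all tested genes), and stayed 0 in the 8 fits leaving out 1 library. For the pathway lists, 3 became 8 with DESeq2, 7 without a filter, 11 with the covariate and 1 without Y-linked libraries, and 2 to 5 leaving out 1 library. The labels do not say what a replicate number marks. Same-numbered libraries correlated at 0.181, 0.415 and 0.301 for numbers 1, 2 and 4, each Ndrg3ctrl library best with the Ndrg3TKO library of its number. For number 3 the correlation was -0.055, and its libraries correlated better with another number, so the numbers were not taken as pairs. Number 3 is also the only number whose libraries differ in Y-linked RNA (0.0681 CPM in Ndrg3ctrl 3 and 416.3 in Ndrg3TKO 3). Its correlation therefore cannot decide the question, and pairing of the samples was neither shown nor excluded. With the replicate block 800 genes passed (5.47%), with 4 listed Rgs genes (adjusted p by edgeR 0.0222 for Rgs1, 0.00839 for Rgs10, 0.0172 for Rgs12 and 0.0283 for Rgs14) and 14 pathway list genes. The cause of these differences was not tested. Leaving out 1 library, the log2 fold change ranged from -0.225 to 0.0430 for Rgs16 and from -0.0869 to 0.00770 for Gnai2, both turning sign without Ndrg3ctrl 2, and in the libraries without Y-linked counts signs turned for Rgs2 (0.000990) and Rgs9 (-0.0112). Of 393 fold changes of single genes under the alternatives, 355 kept direction and side, 19 passed the threshold only there, 15 no longer passed and 4 turned sign. Rgs10 and Rgs19 changed places, to 1 and 2, per kb of the longest protein-coding transcript. Depth limits Rgs18 most, with 2 to 24 counts per library.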
